A study of Mus musculus with 12 samples.

Results

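Gene expression was compared between irradiated bone marrow stem and progenitor cells of mice with the leukemia fusion gene Cbfb-MYH11 (CM) and those of wild-type (WT) mice. The comparison uses the 3 libraries titled as irradiated CM and the 3 titled as irradiated control, 6 of the 12 libraries of the study, and asks which genes differ by genotype 24 h after 3.5 Gy. Both groups are LSK cells, that is, cells without lineage markers that carry Sca1 and cKit. They were sorted from marrow first and irradiated afterwards. The CM mice were at the preleukemic stage, before overt leukemia, and each library comes from a different animal within its group (CM IR and WT IR, animals 1, 2 and 3). The other 6 libraries are LSK cells of the same 6 animals incubated without irradiation (CM NIR and WT NIR) and enter here only to estimate the spread and for side-by-side values. The WT animals are titled control, and their library names carry C or WT while those of CM animals carry CHW; what these codes stand for, how the fusion allele was switched on, and the age and sex of the mice are not stated in the labels.

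Core binding factor is a transcription factor made of a DNA-binding RUNX protein and its partner CBFB, and it directs blood stem cell formation and myeloid and lymphoid differentiation. The human inversion inv(16) joins CBFB to the smooth muscle myosin gene MYH11, and the fusion protein interferes with RUNX1 function and blocks differentiation in acute myeloid leukemia. After ionizing radiation, the tumor suppressor p53 is stabilized and induces genes for cell cycle arrest, such as Cdkn1a, for apoptosis, such as Bbc3 and Pmaip1, and for its own inhibition, such as Mdm2.

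Sequencing depth, as the sum of a library's counts over genes, was 83.3, 92.4 and 110.8 M in WT IR and 88.5, 83 and 84.5 M in CM IR. Levels are given below as CPM, counts relative to the TMM-normalized library size, which are not corrected for gene length and are compared only within a gene. The sort gene Kit stood at 170.0, 247 and 199.6 CPM in WT IR and 209.8, 284 and 248 CPM in CM IR. Ly6a, the gene of Sca1, stood at 76.9, 66.7 and 44.7 CPM in WT IR and 323, 49.7 and 144 CPM in CM IR, and the groups overlapped (adjusted p = 0.55, edgeR). Both sort genes were present in all 6 libraries. Several defining genes of mature lymphoid and stromal cells were at or near 0, and Ms4a1, Cd3d, Cd3e, Cd3g, Dcn and Lum had at most 10 counts in any of the 6. All 6 hemoglobin genes looked up were listed at 0 in every library, as were Rpl26 and Ndufs5, which every cell uses, so these zeros are not read as an absence of red cells.

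The 3 CM IR libraries differed among themselves more than the 3 WT IR libraries did, with a chi-square per degree of freedom between pairs of 184 to 502 against 23.8 to 91.5. On the first principal component of the 6 libraries (55.2% of the variance), WT IR lay between -40.5 and -23.5, and CM IR animals 1, 2 and 3 at 86.9, -5.16 and 17.7. The second component (27% of the variance) set CM IR animal 2 apart at -67.0, with the other 5 libraries between 8.47 and 24.4. Each CM IR library was also placed between WT IR and the other CM IR libraries, over genes called without it. For CM IR animal 3 these were 163 genes with at least 5 CPM. In 161 of them (98.8%) its level lay between the WT IR mean and the mean of the other CM IR libraries. The median was 0.53 of the way from the WT side. CM IR animal 2, left out in the same way, lay at a median of 0.55 over 28 genes, with 20 (71.4%) between. CM IR animal 1 lay at 1.37 over 6 genes, with 0 between. Such genes are chosen for a clear gap between WT IR and the other CM IR libraries. A left-out library is therefore prone to fall short of the others, and the size of this effect was not tested. On the matching scale for CM NIR, the unirradiated library of animal 3 lay at a median of 1.15 (37 higher) and 1.03 (23 lower). Those are the genes with at least 5 CPM called in irradiated cells with all libraries, CM IR animal 3 included. The gene sets differ, so these positions are not directly comparable with 0.53. Over all tested genes, the deviations of CM IR animal 3 from its group mean correlated at 0.125 with those of its own unirradiated library. For CM animals 1 and 2 the values were 0.79 and 0.844, as a description across genes. CM IR animal 1 also correlated at 0.686 with the unirradiated library of animal 3, so a high value does not mark the same animal. Deviations within a group are tied to each other, because they are taken from a shared mean. The part that cell content or RNA quality has in the position of CM IR animal 3 was not tested.

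**Figure D1:**
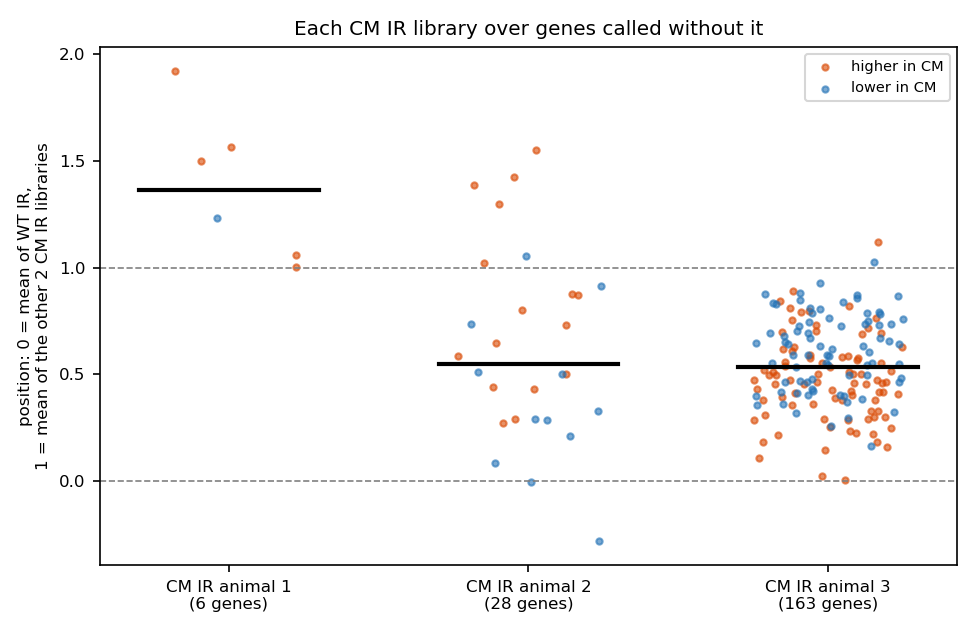
Position of each CM IR library on a scale from 0 (mean of the 3 WT IR libraries) to 1 (mean of the other CM IR libraries), over the genes with at least 5 CPM called without that library. CM IR animal 3 lies at a median of 0.53 over 163 genes, CM IR animal 2 at 0.55 over 28 genes and CM IR animal 1 at 1.37 over 6 genes.

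The gene of the fused subunit itself did not pass the test. Cbfb counts were 199, 218 and 219 CPM in WT IR and 237, 177 and 233 CPM in CM IR, a log2 difference (CM minus WT) of 0.02 ± 0.15 (SE) with an adjusted p of 0.969 in edgeR's quasi-likelihood test. Myh11, the fusion partner, stood at 0.117, 0.106 and 0.211 CPM in WT IR and 0.444, 0.317 and 0.263 CPM in CM IR. All 3 CM IR values were above all 3 WT IR values, but the difference of 1.22 ± 0.44 had an adjusted p of 0.264. Gene counts do not separate fused from normal transcripts, so neither gene checks the genotype labels. Runx1, the DNA-binding partner of CBFB in blood stem cells, was at 238, 227 and 251 CPM in WT IR and 269, 254 and 258 CPM in CM IR, a difference of 0.13 ± 0.07 (adjusted p = 0.564). Runx3, its relative in lymphoid and myeloid cells, was lower in every CM IR library, at 37.7, 54 and 82.1 CPM against 119, 116 and 111 CPM, and the difference of -0.997 ± 0.27 had an adjusted p of 0.136. The corepressor Tle1, a RUNX partner, stood at 21, 19.2 and 20.4 CPM in WT IR and 30.1, 33.5 and 24.3 CPM in CM IR (adjusted p = 0.0791). None of the 15 listed genes of core binding factor and its partners passed the test, and their median log2 difference was -0.03, and -0.11 without WT IR animal 1. Without CM IR animal 3, Runx3 passed as lower and Tle1 as higher. Tle4, a further corepressor of the same family named after its values were seen, rose from 39, 40.9 and 39.5 CPM to 67.1, 55.4 and 55.2 CPM (log2 0.57 ± 0.09, adjusted p = 0.0347).

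Across the 14599 genes tested, 97 (0.664%) differed between CM IR and WT IR at an adjusted p below 0.05 in edgeR's quasi-likelihood test. In CM IR 57 genes were higher (0.39%) and 40 were lower (0.274%), with median log2 differences of 1.52 and -1.93, beside 0.02 over all tested genes. The 3 CM IR values of each of the 97 genes lay entirely above or entirely below the 3 WT IR values, as did those of 2569 of all tested genes (17.6%). Differences of at least 4-fold were found for 20 higher and 19 lower genes. At least 5 CPM in the higher group was reached by 37 higher and 23 lower genes, while 11 and 8 stayed under 1 CPM.

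The number of calls rested on the libraries and on the model. It was 0 when the 6 irradiated libraries were fitted alone (smallest adjusted p 0.129) and 0 with the replicate number as a block (smallest adjusted p 0.211), although 1608 and 1988 genes then had an unadjusted p under 0.05. Leaving out any of WT IR animals 1, 2 and 3 left 3, 6 and 4 calls, and leaving out CM IR animals 1, 2 and 3 gave 6, 32 and 270. DESeq2 called 652 genes, with all 97 among them. Library numbers fall into a pair of runs, the library series, which each hold both genotypes in unequal numbers. Where the animal was a random effect in limma-voom 13 genes passed, and 14 passed with a term for the library series. The 7 genes called in both of those fits were Syne2, Peg10, Arhgef12, Prkca, Pde3b, Aqp3 and Syt6. Of these, Prkca, Pde3b and Syt6 are named after their values were seen. Prkca, a protein kinase C, rose from 23.1, 25.6 and 26 CPM to 48.5, 53.8 and 43 CPM, and Pde3b, a phosphodiesterase, from 19.4, 21.6 and 20.7 CPM to 36.8, 33.4 and 33.5 CPM. Syt6, a synaptotagmin, fell from 2.16, 2.87 and 3.05 CPM to 0.0961, 0.106 and 0.335 CPM. In every alternative in which they were tested, all 97 genes kept their direction. Of the 37 passing genes that met the naming rule, 34, 32 and 34 lost the call without WT IR animals 1, 2 and 3, and 32, 24 and 1 without CM IR animals 1, 2 and 3. Below, rose and fell are used of genes that passed with all libraries.

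**Figure D2:**
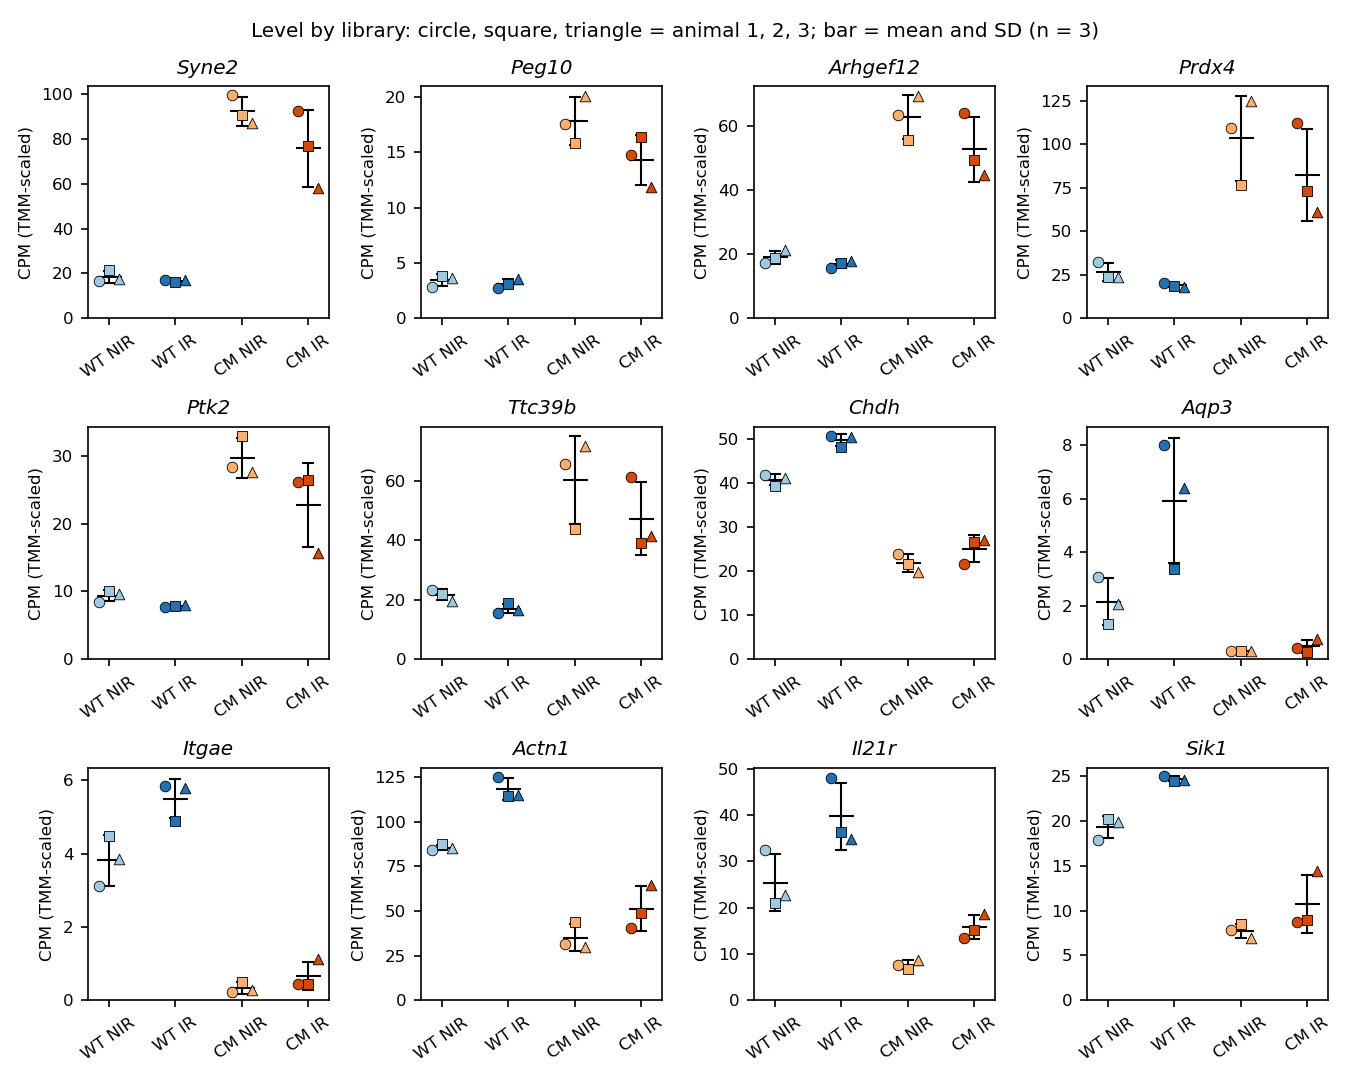
Levels of 12 called genes in CPM (vertical axis, linear, from 0) in WT NIR, WT IR, CM NIR and CM IR; circles, squares and triangles are animals 1, 2 and 3, and bars give the mean and SD of 3 libraries. For each gene all 3 CM IR libraries lie on one side of all 3 WT IR libraries. CM IR animal 3 is the CM IR library nearest to WT IR for every gene shown except Ttc39b, where animal 2 is nearest.

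Windows around gene starts were searched for the RUNX core motif TGTGGT, because RUNX proteins are the DNA-binding partners of the fused subunit. RefSeq promoter windows (build GRCm38.p6, 250 bases before to 50 after each start) matched 11511 of the 14599 tested genes (78.8%). Of these matched genes 15.8% held TGTGGT on either strand (reverse complement ACCACA). A window was found for 77.2% of the higher and 70% of the lower called genes. Coverage was incomplete and lower in the genes that fell, so no comparison between these sets is drawn. Among the called genes named by rule that had a listed window, Il21r, Lat and Mcpt4 held the motif. The listed windows of Actn1, Adamtsl4, Aqp3, Arhgef12, Bank1, Camkk1, Cd38, Chdh, Cnn3 and Dixdc1 did not. Nor did those of Dock1, Ear6, Epx, Gna15, Hdac9, Hs6st2, Prdx4, Sdc1, Syne2 and Ttc39b. Synpo was left out of this listing, as were the genes named after their values were seen. The 250 bases before the starts of Il21r, Lat and Mcpt4 and the first 6 after are shown 5′ to 3′ on the gene's strand. The motif is in capitals, so that it can be seen in place. A match describes the letters of the window only. With the motif in 15.8% of all matched genes, no link to RUNX is read from these matches. In Il21r (chr7:125603179-125603434, plus strand) the match began 33 bases before the start, in Lat (chr7:126369563-126369818, minus strand) 5 bases before it, and in Mcpt4 (chr14:56062305-56062560, minus strand) 69 bases before it.
Il21r: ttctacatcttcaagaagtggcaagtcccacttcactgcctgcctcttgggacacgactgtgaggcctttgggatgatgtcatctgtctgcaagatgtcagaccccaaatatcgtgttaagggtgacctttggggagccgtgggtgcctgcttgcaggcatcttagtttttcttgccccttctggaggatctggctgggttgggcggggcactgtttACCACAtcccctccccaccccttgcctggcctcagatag
Lat: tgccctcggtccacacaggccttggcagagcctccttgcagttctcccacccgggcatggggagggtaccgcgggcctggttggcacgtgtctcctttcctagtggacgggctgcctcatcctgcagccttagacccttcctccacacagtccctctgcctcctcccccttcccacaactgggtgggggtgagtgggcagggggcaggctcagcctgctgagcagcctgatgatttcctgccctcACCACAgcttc
Mcpt4: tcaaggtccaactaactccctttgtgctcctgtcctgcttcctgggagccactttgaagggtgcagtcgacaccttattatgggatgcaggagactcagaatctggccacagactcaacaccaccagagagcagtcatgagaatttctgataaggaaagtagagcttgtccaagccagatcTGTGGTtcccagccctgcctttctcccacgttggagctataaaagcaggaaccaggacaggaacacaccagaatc

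The gene with the smallest p was Syne2, which encodes the nuclear envelope protein nesprin-2 that ties the nucleus to the cytoskeleton (chr12:75818318-76110928, plus strand, mm10). It stood at 17.2, 16 and 17.2 CPM in WT IR animals 1, 2 and 3 and at 92.6, 76.7 and 58.1 CPM in CM IR animals 1, 2 and 3. Every CM IR library was above every WT IR library, highest in animal 1 and lowest in animal 3, and the log2 difference was 2.17 ± 0.17 (SE, adjusted p = 0.00124, edgeR). The genes that rose or fell are described here by role, which is no tested grouping. Arhgef12, a guanine nucleotide exchange factor (chr9:42963842-43105718, minus strand), rose from 15.6, 17.3 and 17.9 CPM to 64, 49.4 and 44.6 CPM (log2 1.64 ± 0.15, adjusted p = 0.00251). Ptk2, the focal adhesion kinase, rose from 7.71, 7.86 and 7.96 CPM to 26.2, 26.4 and 15.6 CPM, with animal 3 again lowest. For the actin-binding gene Cnn3 the values were 16.2, 15.5 and 16.1 CPM in WT IR and 43.2, 45.8 and 27.2 CPM in CM IR, a rise of 1.28 ± 0.18 on the log2 scale (adjusted p = 0.0246). Synpo, which encodes an actin-associated protein, was under 1 CPM in each WT IR library and stood at 8.97, 3.13 and 3.47 CPM in CM IR.

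Sdc1, a heparan sulfate proteoglycan, stood at 5.15, 8.43 and 5.31 CPM in WT IR and 38.1, 32.4 and 18.3 CPM in CM IR, a log2 difference of 2.23 ± 0.39 (adjusted p = 0.0375, edgeR). Hs6st2, an enzyme that sulfates heparan chains, rose from 1.98, 2.09 and 2.19 CPM to 6.83, 7.08 and 4.08 CPM, and Adamtsl4, a secreted matrix protein, from 1.42, 2.58 and 1.71 CPM to 7.31, 5.06 and 4.27 CPM. Cd38, an enzyme that consumes NAD and marks progenitor subsets, stood at 5.12, 6.26 and 4.41 CPM in WT IR and 51.6, 17.9 and 33.7 CPM in CM IR (log2 2.71 ± 0.51, adjusted p = 0.0475), with CM IR animal 2 nearest to WT. Its call held in only 2 of the 18 alternatives, and its adjusted p was 0.0505 without CM IR animal 3. In the adhesion and homing list, 9 of 40 members stood entirely above and 3 entirely below WT IR, beside 9.23% and 8.36% of all tested genes. Among its members that did not pass, the platelet and endothelial adhesion gene Selp stood at 30.6, 39.5 and 36.6 CPM in WT IR and 116, 168 and 75.9 CPM in CM IR (adjusted p = 0.0903).

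Peg10, an imprinted gene derived from a retrotransposon (chr6:4747306-4760516, plus strand), rose from 2.7, 3.11 and 3.53 CPM to 14.8, 16.4 and 11.9 CPM, a log2 difference of 2.20 ± 0.19 (adjusted p = 0.00162, edgeR). Id1, an inhibitor of helix-loop-helix factors, rose from 29.5, 34.9 and 29.8 CPM to 73.6, 69.5 and 51.3 CPM (log2 1.04 ± 0.14, adjusted p = 0.0246). It was the only passing member of 33 tested genes of TGF-beta, BMP and Notch signalling and of 31 myeloid and erythroid fate factors. Of all tested genes 0.39% were called higher. Hdac9, a histone deacetylase, rose from 3.08, 2.83 and 2.67 CPM to 9.99, 6.22 and 7.17 CPM, and Camkk1, a kinase acting upstream of calmodulin kinases, from 5.31, 5.53 and 5.44 CPM to 17.4, 15.9 and 10.5 CPM. A pair of further genes are adaptors of lymphocyte antigen receptors. Lat, the T cell adaptor, rose from 11.7, 8.68 and 8.39 CPM to 45.6, 34.7 and 23.8 CPM, and Bank1, a B cell scaffold, from 0.376, 0.626 and 0.405 CPM to 16.8, 3.93 and 7.96 CPM (adjusted p = 0.0375). Each was the one called member of its lineage list, beside 0.39% of all tested genes called higher. The T and NK list had 23 of 33 members with a negative difference (median -0.56). When CM IR animal 3 was left out, 6 of its 34 tested members were called lower, beside 146 of all 14854 tested genes. The B lineage list had a median of 0.33, and of 0.16 and 0.13 without CM IR animals 2 and 3 (0.18 and 0.16 without WT IR animals 2 and 3). Without CM IR animal 3, Blk, a kinase of B cells named after its values were seen, was called lower. The summed level of the T and NK list was 203 to 255 CPM in WT IR and 278 to 461 CPM in CM IR. Ttc39b rose from 15.6, 18.8 and 16.7 CPM to 61.4, 39.2 and 41.4 CPM.

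Prdx4 encodes a peroxiredoxin of the endoplasmic reticulum that detoxifies hydrogen peroxide (chrX:155323918-155338460, minus strand). It rose from 20.2, 18.6 and 18 CPM to 112, 73.3 and 61.3 CPM (log2 2.12 ± 0.25, adjusted p = 0.0126, edgeR). It was the 1 of 36 tested genes of the antioxidant and NRF2 list that passed, beside 0.39% of all tested genes called higher. In that list 33 of the 36 had a positive difference and 12 stood entirely above WT IR (9.23% of all tested genes did). The list's median was 0.24 and ranged from 0.17 to 0.30 over the alternatives.

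Genes of eosinophil granules were among those that fell. Epx, eosinophil peroxidase (chr11:87863998-87875536, minus strand), stood at 78.3, 82 and 52.8 CPM in WT IR and 2.58, 3.62 and 11.6 CPM in CM IR, and its difference of -3.58 ± 0.59 on the log2 scale had an adjusted p of 0.0375 in edgeR. Prg2, the major basic protein of the granule (chr2:84980461-84983632, plus strand), fell from 85.5, 91.2 and 61 CPM to 2.39, 4.05 and 14.8 CPM (adjusted p = 0.046). Ear6, an eosinophil-associated ribonuclease of a family of near-identical copies whose reads the counting could split, fell from 0.822, 1.16 and 0.801 CPM to 0, 0 and 0.0718 CPM. In Epx and Prg2 the CM IR animal 3 level was higher than those of animals 1 and 2 and still below all WT IR levels. These were the 3 of 12 tested eosinophil genes that passed, all lower, beside 0.274% of all tested genes called lower, and the list median was -1.96. Prg3, a close relative of Prg2, was lower in CM IR (0.324, 0.223 and 1.32 CPM against 5.14, 5.89 and 4.4 CPM) with an adjusted p of 0.0615, and it passed without CM IR animal 3. The list also held Siglecf, a surface receptor of eosinophils that is named, like Prg3, after its values were seen, with 5.05, 6.79 and 4.77 CPM in WT IR and 18, 10.4 and 12 CPM in CM IR, all 3 above WT IR (adjusted p = 0.146). Summed over the list, levels were 420 to 493 CPM in WT IR and 250 to 366 CPM in CM IR. In bulk RNA, fewer cells of a type and less RNA per cell cannot be told apart.

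Itgae, the integrin CD103 (chr11:73090583-73147449, plus strand), stood at 5.83, 4.88 and 5.8 CPM in WT IR and 0.432, 0.446 and 1.11 CPM in CM IR (log2 -3.05 ± 0.43, adjusted p = 0.0246, edgeR), with animal 3 highest among CM IR. Vcam1, an adhesion molecule for integrins, fell from 4.93, 8.89 and 4.71 CPM to 0.973, 0.986 and 2.08 CPM. Actn1, which crosslinks actin, fell from 125, 115 and 115 CPM to 40.4, 48.7 and 64.8 CPM (log2 -1.20 ± 0.18, adjusted p = 0.0347). Dock1, a Rac exchange factor, fell from 54.4, 56.2 and 59.1 CPM to 22.3, 23.9 and 38.4 CPM. Among the genes named for actin or adhesion, Syne2, Ptk2, Arhgef12 and Cnn3 were higher and Actn1, Dock1, Itgae and Vcam1 lower.

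Receptors, channels and enzymes accounted for the other lower genes named. Il21r, a cytokine receptor, fell from 48.1, 36.4 and 34.7 CPM to 13.5, 15.1 and 18.6 CPM (log2 -1.34 ± 0.20, adjusted p = 0.0347, edgeR). It was the 1 of 29 listed cytokine receptors that passed, beside 0.274% of all tested genes called lower. The list's median was 0.42, and 0.23 without CM IR animal 1. Aqp3, a water and glycerol channel (chr4:41092724-41098183, minus strand), stood at 8.02, 3.39 and 6.39 CPM in WT IR and 0.408, 0.282 and 0.754 CPM in CM IR, so that even the lowest WT IR value was well above the highest CM IR value. Chdh, choline dehydrogenase, fell from 50.7, 48.1 and 50.4 CPM to 21.6, 26.6 and 27.2 CPM. The values of Chdh lay close together within each group, and its log2 difference of -0.99 ± 0.11 (adjusted p = 0.00786) had the smallest p among genes that fell. Sik1, a salt-inducible kinase, fell from 25, 24.5 and 24.6 CPM to 8.74, 8.99 and 14.5 CPM. Gria3, a glutamate receptor subunit, fell from 176, 189 and 221 CPM to 68, 75.4 and 103 CPM, and Bace1, a membrane aspartyl protease, from 51.6, 61.3 and 52.2 CPM to 9.43, 10.2 and 23.7 CPM, with CM IR animal 3 nearest to WT in both. P2rx3, an ATP-gated channel, fell from 30.1, 23 and 33.6 CPM to 14.5, 12.3 and 16.6 CPM. Gna15, a G protein subunit of blood cells, fell from 86.8, 64.7 and 76.4 CPM to 29.9, 41 and 42.2 CPM, and Dixdc1, a DIX domain protein linked to Wnt signalling, from 5.13, 5.03 and 5.91 CPM to 1.53, 1.74 and 2.11 CPM.

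Among 58 tested targets of p53, 2 passed the test and both were lower in CM IR, where 0.274% of all tested genes were called lower. Trp53inp1, a stress-induced p53 target that acts in autophagy and cell death (chr4:11156441-11174379, plus strand), fell from 79.7, 87.1 and 85.5 CPM to 38.3, 52.8 and 44.5 CPM (log2 -0.90 ± 0.12, adjusted p = 0.0228, edgeR). Pmaip1, which encodes the apoptosis protein Noxa, fell from 67.7, 76.1 and 74.6 CPM to 43.2, 48.5 and 49.7 CPM (log2 -0.63 ± 0.12, adjusted p = 0.0497). Each had 3 CM IR values below all 3 WT IR values. In total 45 of the 58 had a negative difference, 18 lay entirely below WT IR and 2 entirely above, beside 8.36% and 9.23% of all tested genes. Their median was -0.28, and it was -0.20 without CM IR animal 1, -0.37 without animal 2 and -0.23 without animal 3. With the replicate block no tested gene passed, in this list or outside it.

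**Figure D3:**
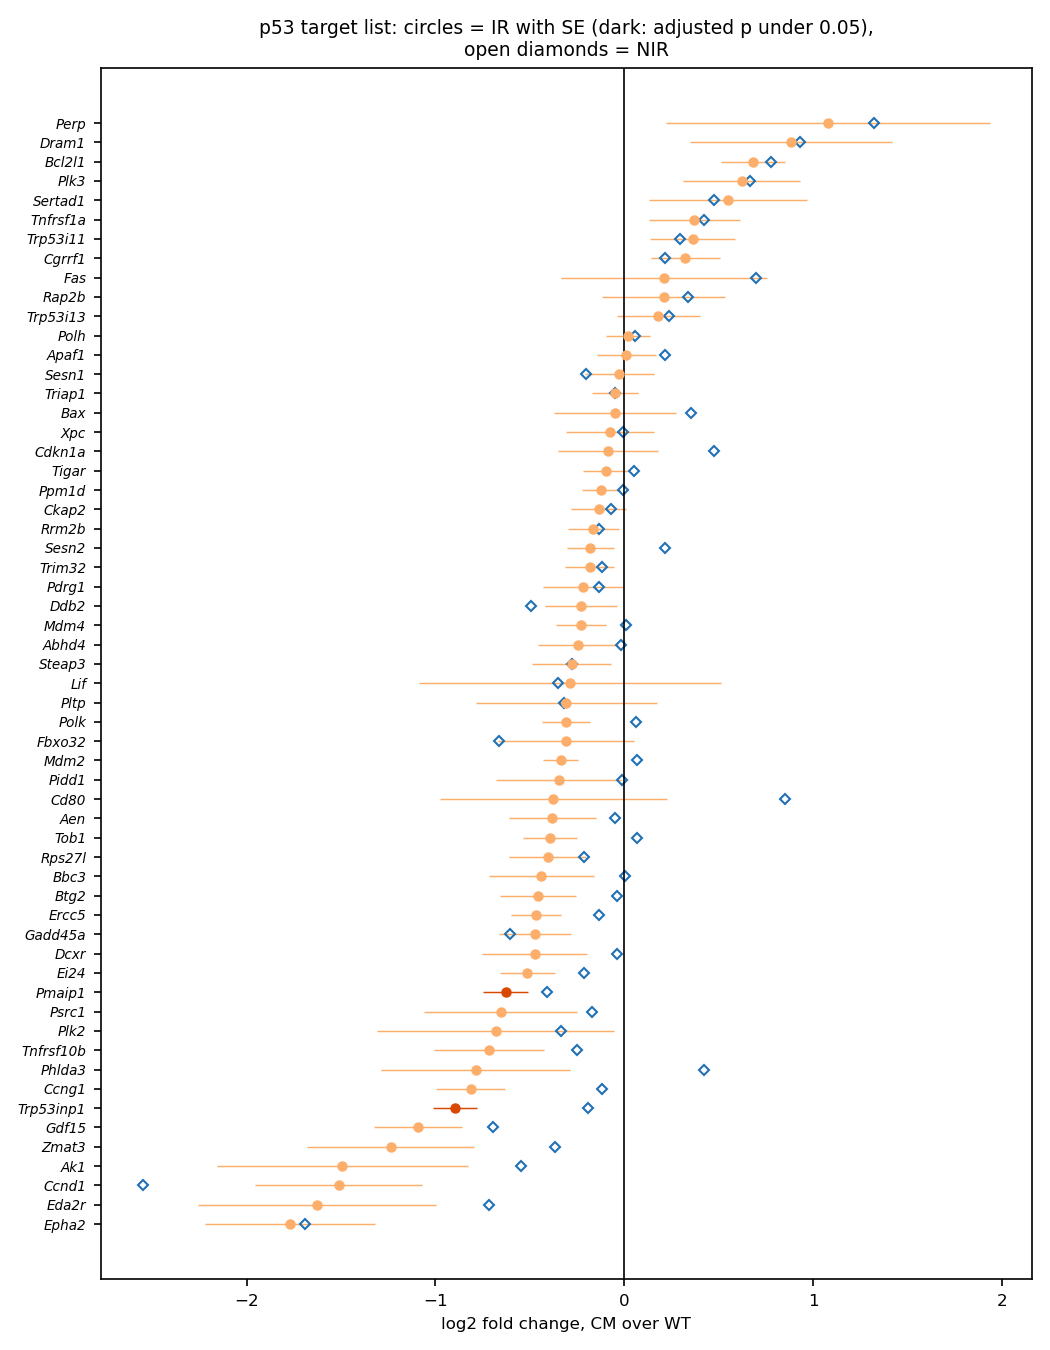
Log2 difference between CM IR and WT IR (circles, with SE, dark where the adjusted p was below 0.05) and between CM NIR and WT NIR (diamonds) for the 58 tested p53 targets. 45 of the circles are at negative values, while the medians are -0.28 for irradiated and -0.04 for unirradiated cells.

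CM IR animal 2 stood nearer to WT IR than animals 1 and 3 in several p53 targets. Zmat3, an RNA-binding p53 target, was at 136, 148 and 157 CPM in WT IR and 28.3, 123 and 35.8 CPM in CM IR, with a log2 difference of -1.24 ± 0.44 (adjusted p = 0.265, edgeR). Ccng1, a cyclin of the p53 feedback loop, was at 523, 579.9 and 606 CPM in WT IR and 260.3, 399.6 and 312 CPM in CM IR, all 3 lower, with an adjusted p of 0.0816. Mdm2, the ubiquitin ligase that restrains p53, stood at 139.6, 153 and 159 CPM in WT IR and 111, 128 and 118 CPM in CM IR (log2 -0.34 ± 0.09, adjusted p = 0.146). The death-inducing genes were less uniform. Bbc3 stood at 11.6, 11.4 and 10.9 CPM in WT IR and 6.77, 12.5 and 5.77 CPM in CM IR, and Bax at 122, 90.4 and 90.7 CPM in WT IR and 97, 139 and 57.1 CPM in CM IR, with overlap in both. Tnfrsf10b, a death receptor, was lower in each CM IR library but did not pass (adjusted p = 0.351).

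Cdkn1a, the arrest gene most used as a p53 reporter, stood at 447, 370.0 and 363 CPM in WT IR and 428, 379 and 303 CPM in CM IR, and Trp53 itself at 203, 199 and 202 CPM and 170.0, 257 and 190.5 CPM. Neither passed, with adjusted p of 0.932 and 0.964 in edgeR. The sign of both differences changed when a library was left out, so no direction is given. Among the 20 listed genes of p53 and its feedback regulators none passed, with a median of -0.14, and -0.02 without CM IR animal 1. DNA damage sensing, end joining, recombination, excision repair and replication genes, in lists of 16 to 43 tested members, held no called gene, with medians from -0.12 to 0.05. Over the left-out libraries these medians ran from -0.19 to 0.07, and the signs for recombination, excision repair and replication turned. The 39 mitosis genes had a median of 0.04 with none called, and of -0.00409 without WT IR animal 1.

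Granulocyte and mast cell genes were uneven across the CM IR libraries. Mcpt4, a mast cell protease of a family with near-identical members, was the 1 of 31 tested mast cell and basophil genes that passed. Of all tested genes 0.39% were called higher. Mcpt4 stood at 0, 0.0106 and 0 CPM in WT IR and 0.372, 0.164 and 0.132 CPM in CM IR (adjusted p = 0.0375, edgeR). At so few counts no fold is given. Fcer1a, the IgE receptor subunit and chosen after its values were seen, stood at 6.7, 4.09 and 4.2 CPM in WT IR and 323, 25.5 and 175 CPM in CM IR. Cpa3, a mast cell carboxypeptidase chosen likewise, stood at 53.2, 44.6 and 54.4 CPM in WT IR and 492, 98.7 and 344 CPM in CM IR. CM IR animals 1 and 3 were far above WT IR in both genes and animal 2 was between, with adjusted p of 0.086 and 0.135. The list's median was 0.81, and 0.37 without CM IR animal 1. Its summed level was 1608 to 2113 CPM in WT IR and 4138, 1693 and 2936 CPM in CM IR animals 1, 2 and 3. The part of mast cell or basophil content in these differences was not tested.

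No neutrophil gene passed, and the named members stood on both sides of WT IR. Lcn2, an iron-binding granule protein, stood at 25.3, 34.6 and 21.9 CPM in WT IR and 238, 91.9 and 139 CPM in CM IR, all higher (adjusted p = 0.0528, edgeR), and Csf3r, the G-CSF receptor, at 113, 111 and 107 CPM and 200.3, 260.3 and 147 CPM. Elane, the early granule protease, was lower in CM IR, at 123, 90.5 and 139 CPM against 323, 328 and 251 CPM (adjusted p = 0.0654), and Cebpe, a factor for granule maturation, at 6.52, 8.57 and 6.5 CPM against 18.8, 17.4 and 12.7 CPM. In the late neutrophil list 0 of 21 passed (median 0.41, and 0.01 and 0.65 without CM IR animals 1 and 2). Without CM IR animal 3, Lcn2 and Csf3r passed as higher and the calprotectin genes S100a8 and S100a9, named after their values were seen, as lower. With all libraries S100a8 stood at 56, 90.8 and 44.2 CPM in WT IR and 7.06, 6.29 and 35.4 CPM in CM IR (adjusted p = 0.253), and S100a9 at 46.6, 68.4 and 33.8 CPM and 2.81, 5.36 and 28.6 CPM (adjusted p = 0.3), with CM IR animal 3 nearest to WT IR in both. For the azurophil granule list 0 of 22 passed and the median was -0.06 (-0.09 without CM IR animal 2). Monocyte and macrophage genes had 1 of 28 members called, Vcam1 (lower, beside 0.274% of all tested genes called lower), and a median of 0.76. Summed over all 30 list members, tested or not, levels were 3186 to 4509 CPM in WT IR. They were 10693, 2201 and 7087 CPM in CM IR animals 1, 2 and 3. Without animal 1 the median was 0.13.

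Markers of other cells the sort could hold gave no further call. Sums are over all list members present in the count data, and medians over the tested ones. The 24 MHC class II and dendritic genes summed to 1932 to 2392 CPM in WT IR. In CM IR animals 1, 2 and 3 they summed to 3455, 1136 and 2246 CPM. The median of the 23 tested was -0.02 and ran from -0.34 to 0.18 when single libraries were left out. For the 30 megakaryocyte and platelet genes the sums were 2415 to 3010 CPM and 5217, 2467 and 3541 CPM. The median of the 29 tested was 0.26, and 0.11 and 0.41 without CM IR animals 2 and 3. CM IR animal 1 was highest in both lists. The 31 endothelial and stromal genes (19 tested) summed to 109 to 188 CPM in WT IR and 143 to 303 CPM in CM IR. The 22 B lineage genes (17 tested) summed to 88.6 to 103 CPM and 105 to 133 CPM. Erythroid and heme genes summed to 1092 to 1207 CPM in WT IR and 1044 to 1098 CPM in CM IR. Whether these contents bear on the calls was not tested.

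Stem cell, interferon and metabolic lists held no called gene. Among 30 stem cell identity genes, the median was 0.02 (0.31 and -0.40 without CM IR animals 1 and 2) and Tgm2, a transglutaminase, stood at 644, 500.3 and 477 CPM in WT IR and 85.5, 100.2 and 215 CPM in CM IR (adjusted p = 0.0534, edgeR). The 42 interferon response genes had a positive difference in 39 and a median of 0.55, but -0.37 without CM IR animal 1, 0.86 without animal 2, and 0.96 and 0.36 without WT IR animals 1 and 3. Erythroid and heme genes had a median of 0.87, and 0.23 without CM IR animal 1. The inflammatory list had 24 of 29 positive and a median of 0.55, and 0.09 and 0.85 without CM IR animals 1 and 2. Tnf, a cytokine, stood at 5.18, 5.8 and 4.81 CPM in WT IR and 19.3, 9.13 and 10.4 CPM in CM IR (adjusted p = 0.0654). Glycolysis and hypoxia genes were positive in 28 of 30 with a median of 0.37, and 0.13 without CM IR animal 1. The smallest p there was that of P4ha2, a collagen prolyl hydroxylase, which stood at 5.38, 6.48 and 4.36 CPM in WT IR and 27.4, 8.1 and 12.1 CPM in CM IR (adjusted p = 0.113). Ribosomal protein genes (78) and nuclear-encoded respiratory chain genes (76) had medians of 0.13 and 0.09 with none called. Without CM IR animal 2 these medians were -0.01 and 0.06, and without animal 3 that of the ribosomal protein genes was 0.21. Replication-dependent histones were negative in 10 of 11, with a median of -0.41, and -0.19 without CM IR animal 2. Genes reported as regulated by RUNX1 in blood cells had a median of 0.07 with 0 of 27 called, from 0.03 to 0.12 over the left-out libraries. Genes that cooperate with inv(16) leukemia had a median of -0.04 with 0 of 22 called, and -0.09 without CM IR animal 3. With the replicate block no tested gene passed, so none of the 43 lists could hold a called member.

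**Figure D4:**
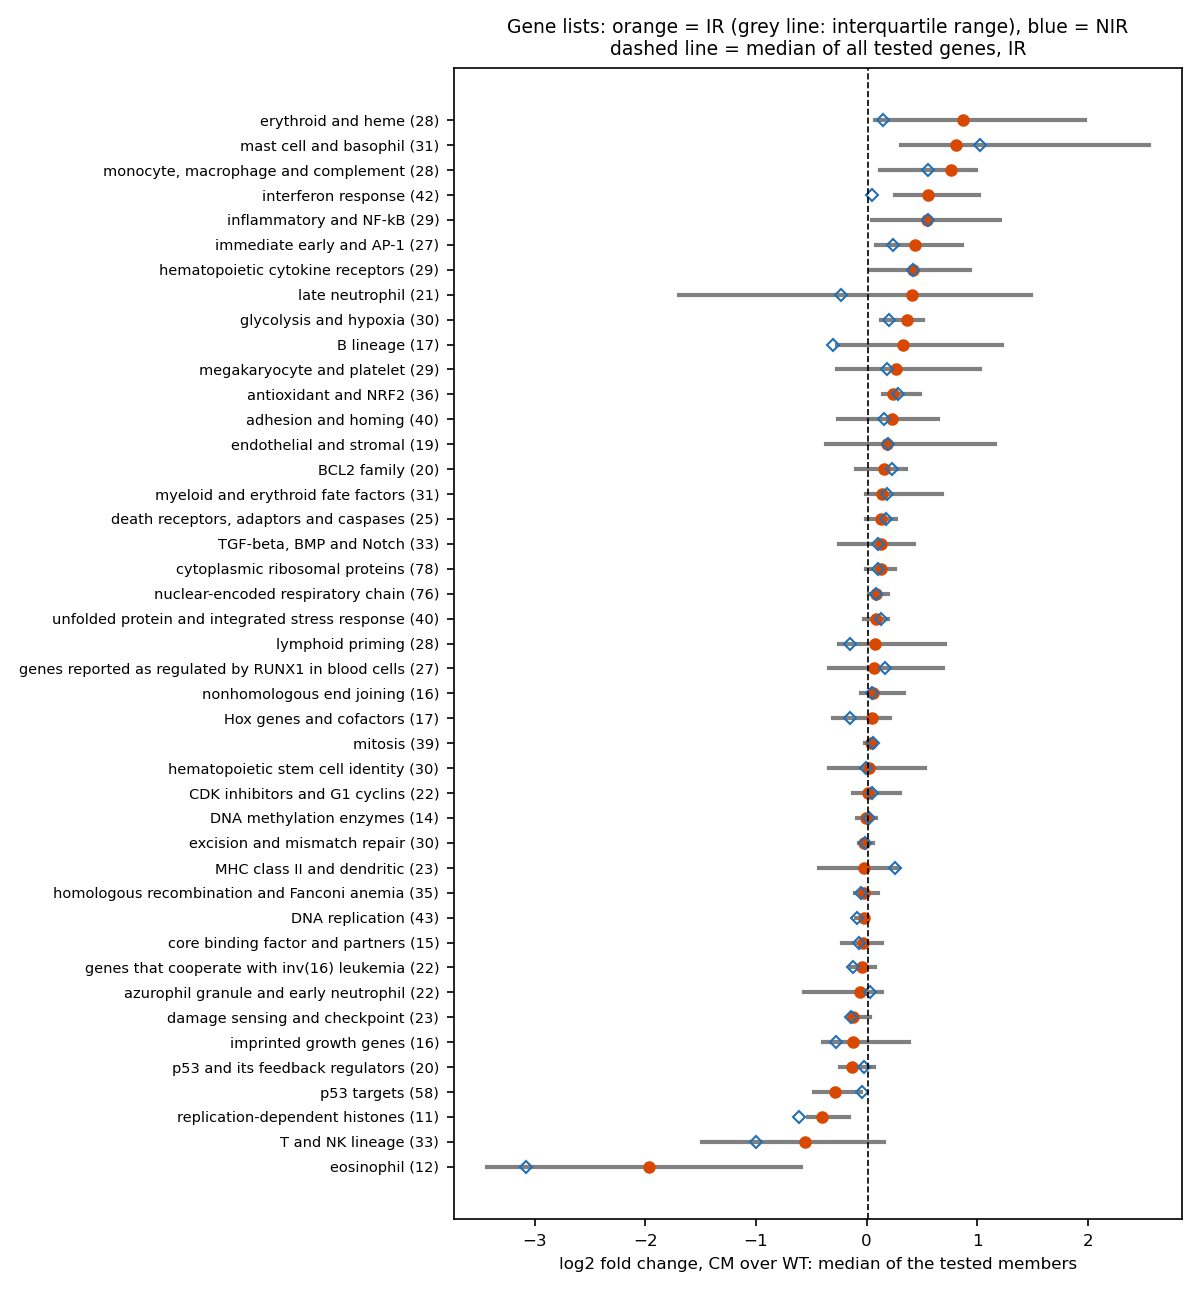
Median log2 difference, CM minus WT, of each of the 43 gene lists in irradiated cells (orange, with the interquartile range of the members as a grey bar) and unirradiated cells (blue diamonds); the dashed line is the median of all tested genes, 0.02. The eosinophil list is lowest at -1.96 in irradiated cells, and the erythroid, mast cell and monocyte lists are highest at 0.87, 0.81 and 0.76.

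Unirradiated LSK cells of the same animals had genotype differences of the same sign for 57 of the 57 higher and 38 of the 40 lower genes. In CM NIR against WT NIR, 237 of 14599 genes passed (1.62%), 137 higher (0.938%) and 100 lower (0.685%), and 53 of the 57 higher and 31 of the 40 lower genes were among them. The libraries share animals, so these values are not independent support. No gene passed the test for a difference between the genotype effects in irradiated and unirradiated cells (0 by edgeR, 106 at an unadjusted p under 0.05; 0 by DESeq2, limma-voom and the animal block). Epx had a log2 difference of -3.58 in irradiated and -5.57 in unirradiated cells, and Prg2 of -3.48 and -5.41. Trp53inp1 differed by -0.90 after irradiation and -0.19 without it (adjusted p = 0.492 in unirradiated cells), and Pmaip1 by -0.63 and -0.41 (adjusted p = 0.131). The 2 lower genes whose unirradiated difference had the other sign were Has2, a hyaluronan synthase, and Pappa2, a protease, named after their values were seen. Has2 stood at 0.364, 0.318 and 0.739 CPM in WT IR and 0.012, 0.0235 and 0 CPM in CM IR, and Pappa2 at 0.352, 0.127 and 0.343 CPM and 0.036, 0.0235 and 0.0359 CPM, all below 1 CPM. Ppargc1a, a coactivator of mitochondrial genes named likewise, was higher at 0.408, 0.27 and 0.407 CPM against 0.0704, 0.0849 and 0.0792 CPM, with log2 2.19 in irradiated and 0.27 in unirradiated cells.

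**Figure D5:**
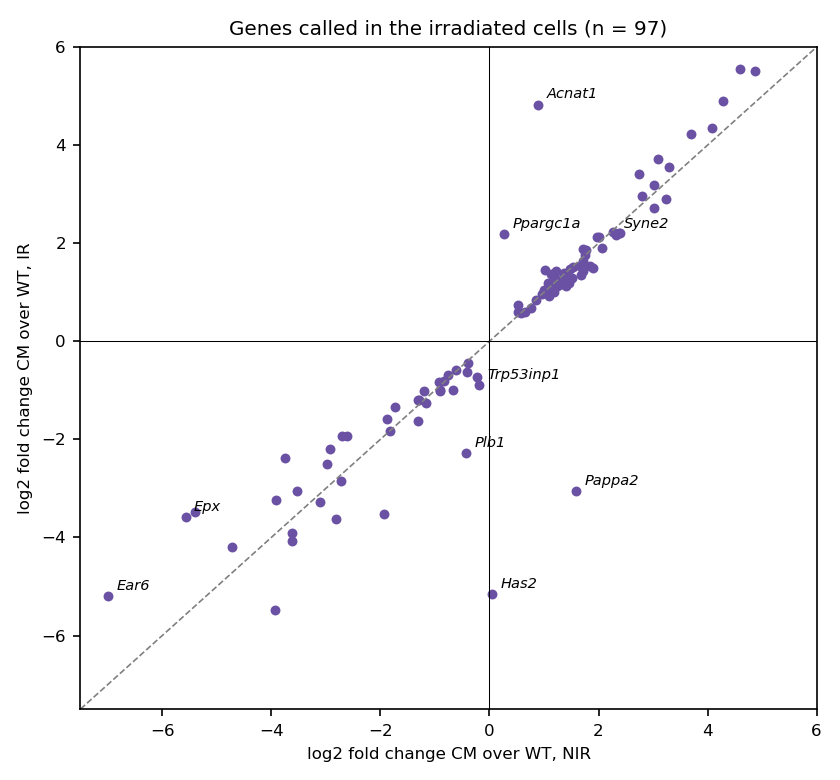
Log2 difference between CM and WT in unirradiated cells (horizontal axis) against that in irradiated cells (vertical axis) for the 97 genes called after irradiation, with the line of equal values. 53 of the 57 higher and 31 of the 40 lower genes were also called in unirradiated cells, and Has2 and Pappa2 lie on the other side of 0 there.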

How the data were processed

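RNA sequencing of LSK cells was analysed from the deposited gene tables of 12 libraries. Per the labels' protocols, an AllPrep kit gave the RNA, and the KAPA RNA HyperPrep kit with RiboErase gave strand-specific libraries without ribosomal RNA. The submitters' processing notes name build mm10, HTSeq 0.6.1p1, TopHat2 and bcl2fastq 2.18.0.12, but no role or setting, strand included. Overlapping, antisense and near-identical genes are therefore uncertain. The authors deposited whole-number counts per gene, used for every main result, and RPKM values, used in 2 alternatives only. Of 25078 genes, 14599 passed filterByExpr (minimum count 10, minimum total 15). A single model with a mean for each of the 4 groups was fitted to the 12 libraries by edgeR 4.0.16 (TMM, quasi-likelihood, Benjamini-Hochberg over all tested genes, threshold 0.05) in R 4.3.3, with a biological coefficient of variation of 0.290 and prior degrees of freedom of 2.41. SE are from that fit. It treats the irradiated and unirradiated libraries of an animal as independent, although their consensus correlation in limma-voom was 0.723. The SE and adjusted p of the main fit do not allow for this. Alternatives used limma 3.58.1 and DESeq2 1.42.0. On simulated counts of 14449 genes for CM IR against WT IR, 37 of 100 changed 2-fold and 75 of 100 changed 4-fold were recovered, with 3 false calls. The simulated libraries were drawn independently, with no effect of animal or library series. The false calls there therefore do not measure the error among the calls made on the data.

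Groups came from the titles. Deviations of same-numbered WT IR and CM IR libraries correlated at 0.39, 0.128 and 0.142, so the number was tried as a block although the labels give different animals. The differently numbered WT IR animal 3 and CM IR animal 2 correlated at 0.237, so these values do not show that the number pairs libraries. The labels do not say whether libraries were prepared together. Library numbers fall into 2 series, each holding both genotypes in unequal numbers. Among irradiated libraries, series A holds 2 CM and 1 WT, and series B holds 1 CM, that of animal 3, and 2 WT. The median absolute log2 difference of the called genes was 1.8 within A and 1.24 within B. In CM IR, animal 3 and series B cannot be told apart. The members and lists were chosen with earlier results of these data known. Genes were named if they belonged to a set of fixed p53 and fusion genes, were among the 15 largest passing differences per direction with at least 5 CPM, no overlap and no predicted name, were up to 4 passing members of a list by smallest p, or up to 2 non-overlapping members of a list with none passing. Others are said to be named after their values were seen. List symbols absent from the table numbered 39, of which 17 were matched through RefSeq synonyms. Some members are not reported here.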

Additional observations from a re-analysis of the deposited data

How the results depend on the processing

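The 97 calls between CM IR and WT IR (57 higher, 40 lower) kept their direction in every alternative in which they were tested, but their number did not hold. DESeq2 called 652 (375 higher, 277 lower), limma-voom 156 (69 and 87), limma-trend on log2(RPKM + 0.1) 130 (53 and 77) and on log2(RPKM + 1) 162 (43 and 119). A minimum of 1 CPM in 3 libraries left 57 (31 and 26). With the animal as a random effect 13 passed (7 and 6), with the library series as a term 14 (7 and 7), and with the 6 irradiated libraries alone 0 (0 and 0). The replicate block, which pairs WT and CM animals by number, gave 0 (0 and 0). Leaving out 1 library gave 3 to 270 calls (3 to 124 higher, 0 to 146 lower), and leaving out both libraries of CM animal 3, chosen after seeing the data, gave 204 (91 and 113). In unirradiated cells (237 calls, 137 higher and 100 lower), DESeq2 called 922 (501 and 421), the random effect 5 (4 and 1), and leaving out CM animal 3 147 (67 and 80). The difference of the genotype differences gave 0 calls throughout. Signs turned only for 4 named genes, none called. Cdkn1a ran from -0.20 to 0.0385 over the left-out libraries and was 0.0512 without CM animal 3. Trp53 ran from -0.16 to 0.16, and was -0.0121 with the series term. Cbfb ran from -0.0474 to 0.15, and was -0.0234 without CM animal 3. Bax ran from -0.39 to 0.22, and was 0.24 without CM animal 3. The cause of these changes was not tested. At 83 M to 110.8 M counts a library, irradiated libraries of a group differed by more than counting error. Their chi-square per degree of freedom was 23.8 to 502. Animal and library preparation cannot be told apart in this spread. Genes under 1 CPM are less precise.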
